A study of Homo sapiens with 6 samples.

Results

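The 9 genes described here encode enzymes that turn lanosterol, the first sterol of the pathway, into cholesterol: CYP51A1, TM7SF2, LBR, MSMO1, NSDHL, HSD17B7, EBP, SC5D and DHCR7. They were taken by gene name from the deposited count table of 58735 rows, in which each of the 9 occurred once. All 9 were among the 16081 genes tested. RNA was sequenced from MDA-MB-231, a human triple-negative breast cancer line, in 2 groups of 3 libraries lettered a, b and c. Cells of the first group were kept for 72 h in 2 µM Azeliragon, an oral drug candidate that blocks RAGE, a cell-surface receptor for glycated proteins, and cells of the second for 72 h in DMSO, its solvent. Both groups grew in DMEM-F12 medium with fetal bovine serum and glutamine. No label states separate cultures within a group, so the p-values cover only variation from library to library, and this may be technical. In bulk RNA a change in every cell and a change in the share of cells that express a gene cannot be told apart.

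Cells make cholesterol in a long chain of reactions: acetyl units are joined into mevalonate and then squalene, squalene is closed into the ring system of lanosterol, and lanosterol is trimmed of its extra methyl groups and its double bonds are moved and reduced. The enzymes of this last stretch sit in the membrane of the endoplasmic reticulum, and most of their genes are known targets of SREBP2, a transcription factor released when membrane cholesterol is low. The last stretch also makes intermediates with roles of their own, such as the precursor of vitamin D, and mutations in several of these genes cause human malformation syndromes.

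The line fitted its label in most markers, but ERBB2 and EPCAM, chosen as low markers, had reads in every library. VIM stood at 1834 ± 45.9 CPM with Azeliragon and 2036 ± 253 CPM in DMSO (SD, n = 3 each), FN1 and CD44 did not differ past the threshold, PGR had 0 reads in all 6 libraries, and CDH1 had at most 1 read per library. ESR1 had 9 to 14 reads per library with Azeliragon and 0 to 5 in DMSO. CPM is counts relative to the library total, scaled by TMM. ERBB2 RNA was present, at 110 ± 1.87 CPM with Azeliragon and 109 ± 5.33 CPM in DMSO. EPCAM RNA was also present, at 8.14 ± 0.679 CPM with Azeliragon and 8.97 ± 0.714 CPM in DMSO. EPCAM had 306 to 373 reads per library with Azeliragon and 368 to 407 in DMSO. Library totals were 41455979 to 43772671 counts with Azeliragon and 43091452 to 44313584 in DMSO, where 3 counts are 0.0685 to 0.0724 CPM and 0.0677 to 0.0696 CPM. Library DMSO a stood apart. Along the leading axis of a principal component analysis, with 37.6% of the variance, it lay at -0.23, where the Azeliragon libraries lay at -23.0 to -19.0 and DMSO b and c at 30.1 and 33.7. Markers of leukocytes, endothelium and hepatocytes (PTPRC, CD3E, PECAM1, VWF, ALB and APOA1) had between 0 and 28 reads per library with Azeliragon and between 0 and 18 in DMSO, and none of the 3 that could be tested was called.

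With Azeliragon 7 of the 9 enzyme genes rose, none fell, and TM7SF2 and LBR did not pass the threshold, an adjusted p under 0.05 in edgeR's quasi-likelihood test with Benjamini-Hochberg adjustment over all 16081 genes. Over all genes tested 6.27% were called in either direction and 2.75% were called higher. The 7 that rose were CYP51A1 (first step), MSMO1, NSDHL and HSD17B7 (removal of the C4 methyl groups), EBP, SC5D and DHCR7 (later changes of ring double bonds), by between 1.34-fold and 2.53-fold. In these 7 genes every Azeliragon library lay above every DMSO library, which was so for 12.1% of all genes tested. The median log2 fold change was 0.56 over the 9 genes, and -0.00397 over all genes tested. The 2 genes that did not pass encode the enzymes of the same step, the reduction of the C14 double bond.

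**Figure D1:**
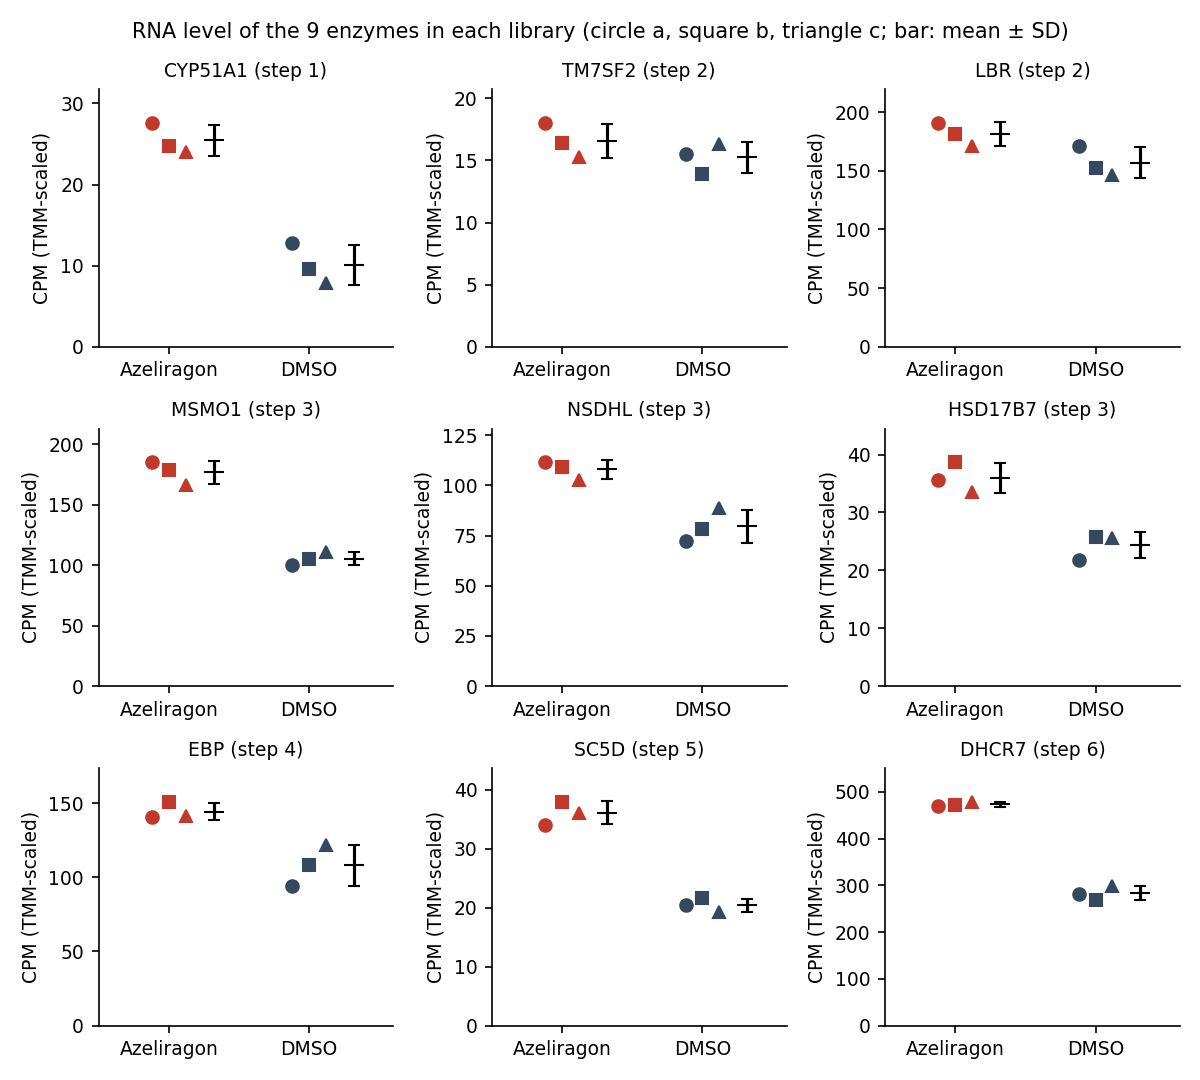
RNA level (TMM-scaled CPM, vertical axis from 0) of each enzyme gene in the 3 Azeliragon and the 3 DMSO libraries, in pathway order. Points are libraries and bars the mean ± SD. The groups are apart in 7 panels and overlap for TM7SF2 (15.3 to 18.1 CPM with Azeliragon, 13.9 to 16.3 CPM in DMSO) and LBR.

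CYP51A1 encodes the cytochrome P450 that removes the C14 methyl group of lanosterol and is the target of azole drugs in fungi. It lies on the minus strand of chromosome 7 at 92112151 to 92134803 (GRCh38, GENCODE 29). Its level was 27.6, 24.8 and 24.0 CPM in Azeliragon a, b and c, against 12.8, 9.59 and 7.83 CPM in DMSO a, b and c. The lowest Azeliragon library was 1.88 times the highest DMSO library, DMSO a. The fold was 2.53 (log2 fold change 1.34, SE 0.15, 95% interval 1.02 to 1.66; edgeR adjusted p = 0.000209), rank 18 among the 442 genes called higher. The spread was wide in DMSO, with a coefficient of variation of 24.8%, against 7.53% with Azeliragon. Without DMSO a the log2 fold change was 1.55, and without DMSO c, the lowest library, it was 1.19.

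The count of CYP51A1 may cover only part of its transcript. Of its 3584 exon bases, 2982 (83.2%) also belong to another annotated gene, chiefly AC000120.2, a protein-coding gene of the same strand that shares 2844 of them. AC000120.2 and AC000120.3 were listed at 0 in all 6 libraries, and the antisense CYP51A1-AS1, which shares 138 exon bases, had at most 2 reads. No read in the bases shared with AC000120.2 was thus counted for that gene. Whether such reads were left out, as some counting settings do, or given to CYP51A1 alone is not given in the sources used here. The reads of CYP51A1, 995 to 1188 with Azeliragon and 338 to 576 in DMSO, therefore set no firm level. The comparison between groups may likewise rest on only part of the transcript, which was not tested. The pseudogenes CYP51A1P1 and CYP51A1P2 had at most 8 reads in a library and CYP51A1P3 had 0.

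The next step, reduction of the C14 double bond, can be done by either of 2 related proteins. TM7SF2 encodes the sterol C14-reductase of the endoplasmic reticulum, and LBR a receptor of the inner nuclear membrane that binds lamin B and carries a second C14-reductase. TM7SF2, on chromosome 11 at 65111845 to 65116384 (plus strand), had 18.1, 16.4 and 15.3 CPM in Azeliragon a, b and c, against 15.5, 13.9 and 16.3 CPM in DMSO a, b and c. Its groups overlapped, since Azeliragon c lay below DMSO a and c. The log2 fold change was 0.12 (95% interval -0.10 to 0.34; edgeR adjusted p = 0.549), which bounds a rise at 1.26-fold. TM7SF2 shares 16 exon bases with VPS51 of the same strand.

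LBR, on chromosome 1 at 225401502 to 225428925 (minus strand), had 191, 181.5 and 170.7 CPM in Azeliragon a, b and c, against 171.4, 152.5 and 146.2 CPM in DMSO a, b and c. The 2 groups overlapped only by Azeliragon c, which lay just below DMSO a. The log2 fold change was 0.21 (SE 0.07, 95% interval 0.05 to 0.37; edgeR adjusted p = 0.133), a fold of 1.16. LBR did pass without DMSO a (log2 fold change 0.28, edgeR adjusted p = 0.000437) and after a correction for gene GC content and length in each library (0.23, edgeR adjusted p = 0.0428), so its call depended on these choices. TM7SF2 passed under none of the 15 other settings, with log2 fold changes of 0.06 to 0.20.

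The balance between the 2 reductases was read from a ratio. The log2 ratio of TM7SF2 to LBR counts within a library, which no scaling of whole libraries changes, was -3.40, -3.47 and -3.48 in Azeliragon a, b and c, against -3.47, -3.46 and -3.16 in DMSO a, b and c. The mean differed by -0.09 (two-sided exact permutation test over 6 libraries, p = 0.5, adjusted p = 0.5 over 3 ratios, where 0.1 is the smallest p the design allows, so no shift could have passed). Without DMSO c the difference was 0.01. The ratio was not corrected for gene GC content and length. With that correction the log2 fold changes were 0.20 for TM7SF2 and 0.23 for LBR. Of 7 tested relatives and lamina partners of the enzymes 1 fell and none rose, where 6.27% of all genes tested were called in either direction. LMNB1, for lamin B1, had 148 ± 5.12 CPM with Azeliragon and 176 ± 2.08 CPM in DMSO (SD, n = 3 each), a fall by 0.25 on the log2 scale (edgeR adjusted p = 0.0294). That call was lost with any single Azeliragon library or DMSO b left out (edgeR adjusted p up to 0.205) and with a replicate block. LMNA and LMNB2 missed the threshold, at -0.13 and 0.09 on the log2 scale (edgeR adjusted p = 0.237 and 0.452), though LMNA passed without DMSO a (edgeR adjusted p = 0.0151).

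Removal of the methyl groups at C4 takes a complex of MSMO1, which oxidises the methyl group, NSDHL, which removes it as carbon dioxide, and HSD17B7, which reduces the ketone left at C3. All of the genes rose. MSMO1, on chromosome 4 at 165327623 to 165343160 (plus strand), had 185, 179 and 166 CPM in Azeliragon a, b and c, against 100.1, 105.5 and 110.6 CPM in DMSO a, b and c. Its groups were far apart, with the lowest Azeliragon library at 1.51 times the highest DMSO library. The fold was 1.68 (log2 fold change 0.75, SE 0.07, 95% interval 0.60 to 0.89; edgeR adjusted p = 5.44e-05).

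NSDHL lies on chromosome X at 152830967 to 152869729 (plus strand). It had 112, 109 and 103 CPM in Azeliragon a, b and c, against 72.3, 78.2 and 88.6 CPM in DMSO a, b and c. The groups did not overlap, but the lowest Azeliragon library exceeded the highest DMSO library, DMSO c, by a factor of only 1.16. The fold was 1.35 (log2 fold change 0.44, SE 0.08, 95% interval 0.26 to 0.61; edgeR adjusted p = 0.00627). The call was lost without Azeliragon a (edgeR adjusted p = 0.0592) or without DMSO b (edgeR adjusted p = 0.0514).

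HSD17B7, on chromosome 1 at 162790702 to 162812817 (plus strand), had 35.6, 38.7 and 33.6 CPM in Azeliragon a, b and c, against 21.7, 25.8 and 25.7 CPM in DMSO a, b and c. Every Azeliragon library lay clearly above every DMSO library. The fold was 1.48 (log2 fold change 0.56, SE 0.09, 95% interval 0.36 to 0.76; edgeR adjusted p = 0.00355). HSD17B7 has a transcribed pseudogene, HSD17B7P2, with which it can share reads. HSD17B7P2 had 133 to 172 reads with Azeliragon and 95 to 122 in DMSO, where HSD17B7 had 1394 to 1688 and 980 to 1112, and its log2 fold change of 0.46 did not pass (edgeR adjusted p = 0.174). ERG28, a scaffold protein that tethers the C4 enzymes in yeast, had 63.8 ± 3.71 CPM with Azeliragon and 50.8 ± 5.05 CPM in DMSO (SD, n = 3 each; log2 fold change 0.33, edgeR adjusted p = 0.0401). The ERG28 call was lost with a replicate block and without DMSO b or any 1 Azeliragon library (edgeR adjusted p up to 0.198).

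Whether members of the C4 complex changed by unlike amounts was read from a ratio within each library. The log2 ratio of MSMO1 to HSD17B7 within a library was 2.38, 2.21 and 2.31 in Azeliragon a, b and c, against 2.21, 2.03 and 2.11 in DMSO a, b and c. The mean was 0.18 higher with Azeliragon, and the groups met at 2.21 when rounded. The two-sided exact permutation test gave p = 0.1, the smallest p the design allows, and an adjusted p of 0.15 over the 3 ratios. No difference of any size could have passed with 3 libraries a group, so the test leaves the question unanswered.

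The promoters of MSMO1, NSDHL and EBP are shown because these 3 windows held the most CCAAT boxes among the enzymes. That of LBR is shown because LBR alone among the enzymes had no window with any of the motifs searched. The letters are from RefSeq on GRCh38.p14, 250 bases before to 50 after the annotated start, 5′ to 3′ on the strand of the gene, with CCAAT and its reverse complement ATTGG in capitals. The windows are chr4:165327419-165327718 (plus strand), chrX:152830813-152831112 (plus), chrX:48521558-48521857 (plus) and chr1:225428772-225429071 (minus).
MSMO1: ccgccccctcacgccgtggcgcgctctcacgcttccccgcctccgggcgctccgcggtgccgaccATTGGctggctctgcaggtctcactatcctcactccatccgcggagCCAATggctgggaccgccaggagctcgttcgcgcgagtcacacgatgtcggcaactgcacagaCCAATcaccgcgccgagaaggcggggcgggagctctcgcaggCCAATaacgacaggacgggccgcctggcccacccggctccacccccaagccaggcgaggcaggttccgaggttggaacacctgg
NSDHL: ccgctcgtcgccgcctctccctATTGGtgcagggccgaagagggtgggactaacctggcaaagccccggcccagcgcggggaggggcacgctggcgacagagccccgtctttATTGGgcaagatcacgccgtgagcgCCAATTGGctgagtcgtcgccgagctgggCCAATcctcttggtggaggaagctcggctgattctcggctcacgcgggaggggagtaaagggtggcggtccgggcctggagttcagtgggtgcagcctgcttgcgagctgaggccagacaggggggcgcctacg
EBP: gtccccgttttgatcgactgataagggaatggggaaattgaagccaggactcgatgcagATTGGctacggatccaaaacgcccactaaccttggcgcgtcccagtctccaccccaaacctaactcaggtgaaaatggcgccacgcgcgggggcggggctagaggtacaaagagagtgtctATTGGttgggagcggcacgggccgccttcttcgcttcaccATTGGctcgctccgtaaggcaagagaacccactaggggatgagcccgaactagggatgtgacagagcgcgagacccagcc
LBR: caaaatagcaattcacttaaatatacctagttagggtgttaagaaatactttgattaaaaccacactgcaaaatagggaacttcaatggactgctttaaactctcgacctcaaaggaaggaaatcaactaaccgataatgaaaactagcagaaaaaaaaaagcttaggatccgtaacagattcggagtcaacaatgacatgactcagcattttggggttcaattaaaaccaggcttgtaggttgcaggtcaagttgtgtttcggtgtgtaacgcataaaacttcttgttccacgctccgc

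All 9 enzymes had a window, and SC5D and DHCR7 had a pair of starts each, which gave 11 windows. CCAAT, the box bound by NF-Y, a factor that works beside SREBP at many sterol genes, was found in 8 of the 11 windows and in 34.6% of all 35116 promoter windows, on either strand. MSMO1 held 4 matches, NSDHL 5 (a pair of which overlap in CCAATTGG) and EBP 3, and 3.26% of all windows held 3 or more. The GC box GGGCGG was in 8 of the 11 windows and in 45.0% of all. The sterol regulatory element core TCACNCCAC was in none of the 11 and in 1.13% of all windows, and the looser TCACNCNAC was in HSD17B7 alone, 98 bases before the start, and in 2.55% of all. The E-box CACGTG was in both windows of SC5D, which overlap and share it and their CCAAT box, and in 7.26% of all. LBR, CYP51A1 and the second start of DHCR7 held no CCAAT box. That second start, like LBR, held none of the motifs, and TM7SF2, which did not pass, held 1 CCAAT box and 4 GC boxes. These matches describe letters in a 300-base window and say nothing of factor binding.

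**Figure D2:**
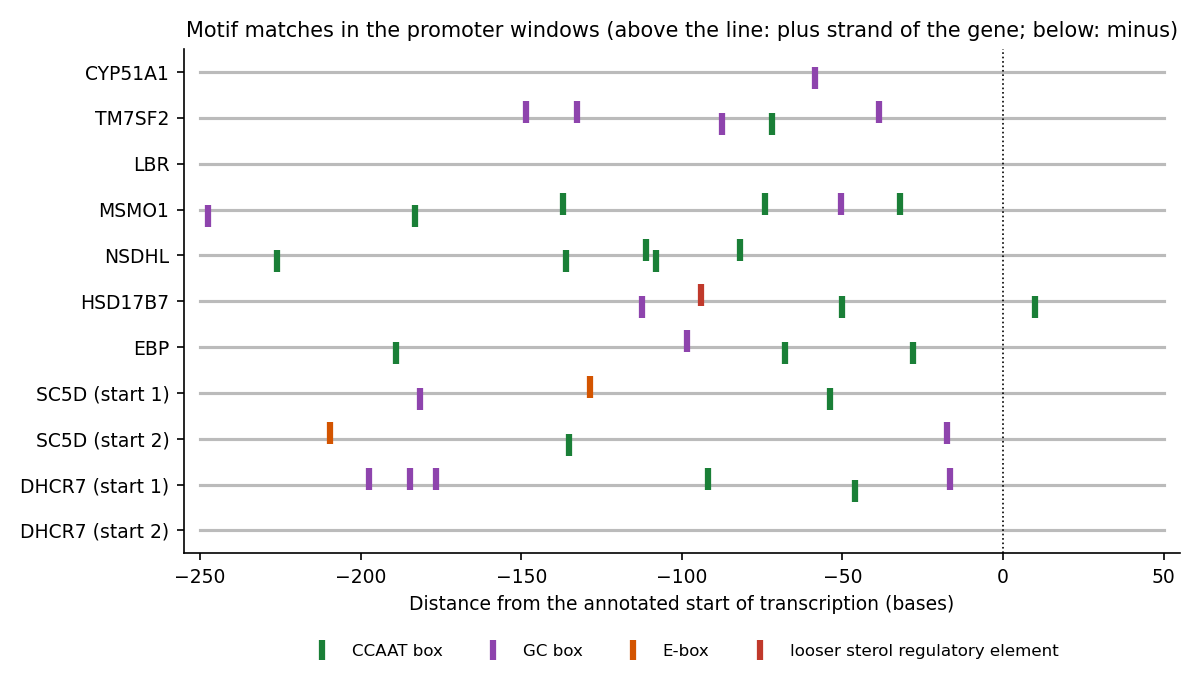
Motif matches in the 11 promoter windows, with distance from the annotated start in bases on the horizontal axis and one row per start. Ticks above a line are on the strand of the gene and ticks below it on the other strand. MSMO1, NSDHL and EBP carry 4, 5 and 3 CCAAT boxes, and LBR none.

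EBP, the isomerase that moves the ring double bond from C8 to C7 and is named for binding the calcium antagonist emopamil, lies on chromosome X at 48521158 to 48528716 (plus strand). It had 141, 151 and 141 CPM in Azeliragon a, b and c, against 94.3, 108 and 122 CPM in DMSO a, b and c. The groups were apart, with DMSO c the closest to the Azeliragon libraries. The fold was 1.34 (log2 fold change 0.42, SE 0.09, 95% interval 0.23 to 0.61; edgeR adjusted p = 0.0126), the smallest rise among the 7. It was also the least firm call, lost without Azeliragon a, b or c or without DMSO b (edgeR adjusted p = 0.0665, 0.0850, 0.0618 and 0.0741, in that order). Its relative EBPL had 26.5 ± 0.794 CPM with Azeliragon and 25.6 ± 4.04 CPM in DMSO (SD, n = 3 each) and did not pass (edgeR adjusted p = 0.863).

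SC5D, the desaturase that puts a double bond at C5, lies on chromosome 11 at 121292453 to 121308694 (plus strand). It had 34.1, 38.0 and 36.1 CPM in Azeliragon a, b and c, against 20.4, 21.6 and 19.3 CPM in DMSO a, b and c. The DMSO libraries lay close together, and every Azeliragon library was at least 1.58 times as high. The fold was 1.77 (log2 fold change 0.82, SE 0.08, 95% interval 0.64 to 1.0; edgeR adjusted p = 0.000120), the second largest of the 9.

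DHCR7, the reductase that removes the C7 double bond and so takes the vitamin D precursor to cholesterol, lies on chromosome 11 at 71428193 to 71452868 (minus strand). It had 469, 471 and 479 CPM in Azeliragon a, b and c, against 282, 269 and 299.5 CPM in DMSO a, b and c. The Azeliragon libraries were nearly alike, with a coefficient of variation of 1.08%, against 5.35% in DMSO. The fold was 1.67 (log2 fold change 0.74, SE 0.06, 95% interval 0.61 to 0.87; edgeR adjusted p = 3.55e-05), the smallest p among the 9.

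Along the pathway the changes had no steady trend. They ran from 2.53-fold at the first step through 1.09-fold and 1.16-fold at the C14 reductases, 1.68-fold, 1.35-fold and 1.48-fold in the C4 complex and 1.34-fold at EBP to 1.77-fold and 1.67-fold at SC5D and DHCR7. By size the 95% interval of CYP51A1 (2.02 to 3.16-fold) lay above those of all other members, but only just above that of SC5D (1.56 to 2.00-fold). CYP51A1 was singled out as the largest after the values were seen, and its count may cover only part of its transcript. The log2 ratio of CYP51A1 to DHCR7, the first and the last enzyme, was -4.09, -4.25 and -4.32 in Azeliragon a, b and c, against -4.46, -4.81 and -5.26 in DMSO a, b and c. It was 0.63 higher with Azeliragon and the groups did not overlap, yet the exact permutation test (two-sided) could reach no lower than the p = 0.1 it gave, with an adjusted p of 0.15. CYP51A1, MSMO1, HSD17B7, SC5D and DHCR7 kept their calls without any 1 library, and NSDHL and EBP did not.

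**Figure D3:**
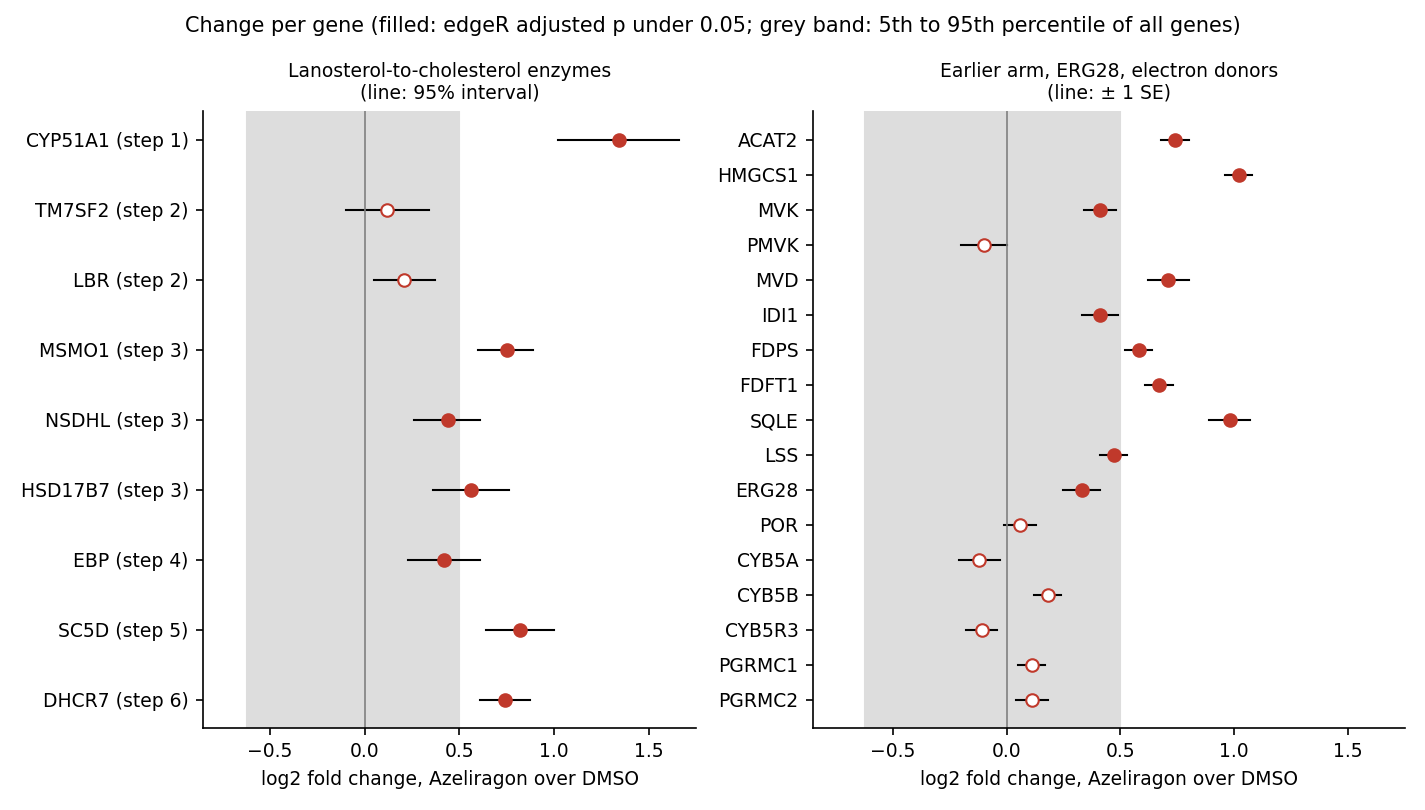
Log2 fold change of Azeliragon over DMSO for the 9 enzymes in pathway order (left, with 95% intervals) and for other genes of the pathway (right, with ± 1 SE). Filled points passed edgeR's test, and the grey band spans the 5th to 95th percentile of all genes tested, -0.62 to 0.50. CYP51A1, MSMO1, HSD17B7, SC5D and DHCR7 lie above the band.

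**Figure D4:**
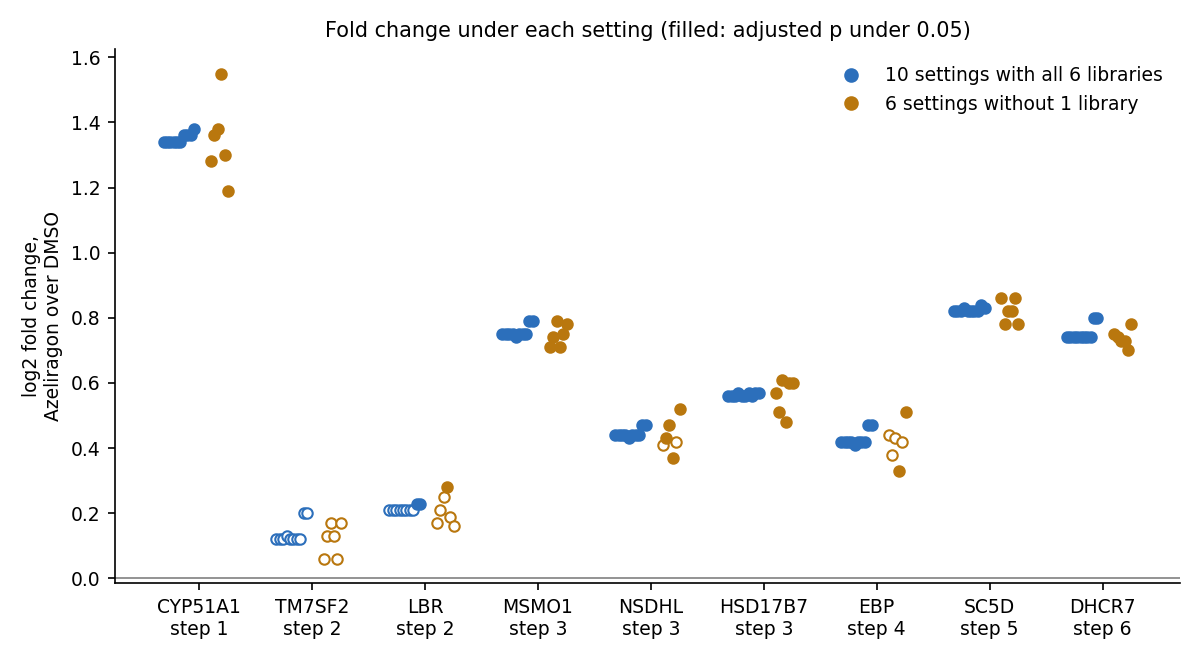
Log2 fold change of each enzyme under the settings that keep all 6 libraries, the reported one included (left cluster), and with each library left out (right cluster). Filled points had an adjusted p under 0.05. No value lies below 0, and open points occur for TM7SF2, LBR, NSDHL and EBP.

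Levels of different genes were compared per length, as TPM, the count per exon base scaled to the same sum in every library. DHCR7 was the most abundant, at 366 ± 5.83 TPM with Azeliragon and 212 ± 13.1 TPM in DMSO (SD, n = 3 each). With Azeliragon it was followed by MSMO1 (197 ± 10.5 TPM), EBP (192 ± 6.11), NSDHL (174 ± 7.07) and LBR (111 ± 6.29), and the libraries of MSMO1 and EBP overlapped. In DMSO the order after DHCR7 was EBP (139 ± 9.20 TPM), NSDHL (124 ± 5.87), MSMO1 (113 ± 1.64) and LBR (93.3 ± 13.8), and EBP overlapped NSDHL. This order depends on the length used. Divided by the longest transcript in place of all exon bases, the levels with Azeliragon were 194 TPM for EBP, 186 for MSMO1, 134 for NSDHL and 113 for LBR, and those in DMSO were 140 for EBP, 107 for MSMO1, 95.6 for LBR and 95.4 for NSDHL. DHCR7 was the highest on both lengths.

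With all exon bases as length, a second tier of 4 genes lay far lower. With Azeliragon HSD17B7 had 24.2 ± 1.54 TPM, CYP51A1 22.9 ± 1.79, SC5D 20.8 ± 0.977 and TM7SF2 15.6 ± 1.35, and each neighbour among the first 3 overlapped the next. In DMSO HSD17B7 had 15.9 ± 0.736 TPM, TM7SF2 13.9 ± 1.31, SC5D 11.5 ± 1.07 and CYP51A1 8.85 ± 2.76, with overlap between HSD17B7 and TM7SF2 and between SC5D and CYP51A1. TM7SF2 was the lowest of the 9 with Azeliragon and CYP51A1 in DMSO, but over the longest transcript both genes stood at 18.9 TPM with Azeliragon. The place of CYP51A1 also depends on its shared bases. Dividing its whole count by only the exon bases that no other gene shares gave 136 ± 10.7 TPM with Azeliragon and 52.7 ± 16.4 TPM in DMSO. These values hold only if no read in the shared bases was counted, which is not known. With the longest transcript as length SC5D stands at 35.0 ± 1.66 TPM with Azeliragon and 19.3 ± 1.84 TPM in DMSO.

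The levels of the 9 genes summed to 1144, 1126 and 1098 TPM in Azeliragon a, b and c, against 755, 709 and 733 TPM in DMSO a, b and c. DHCR7 made up 32.6% of the sum with Azeliragon and 29% in DMSO, and MSMO1 17.5% and 15.5%. LBR made up 9.86% ± 0.364 with Azeliragon and 12.7% ± 1.61 in DMSO (SD, n = 3 each), and EBP 17.1% ± 0.618 and 19.0% ± 1.56. The sums and shares use all exon bases as length, also for CYP51A1, describe these libraries and were not tested.

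**Figure D5:**
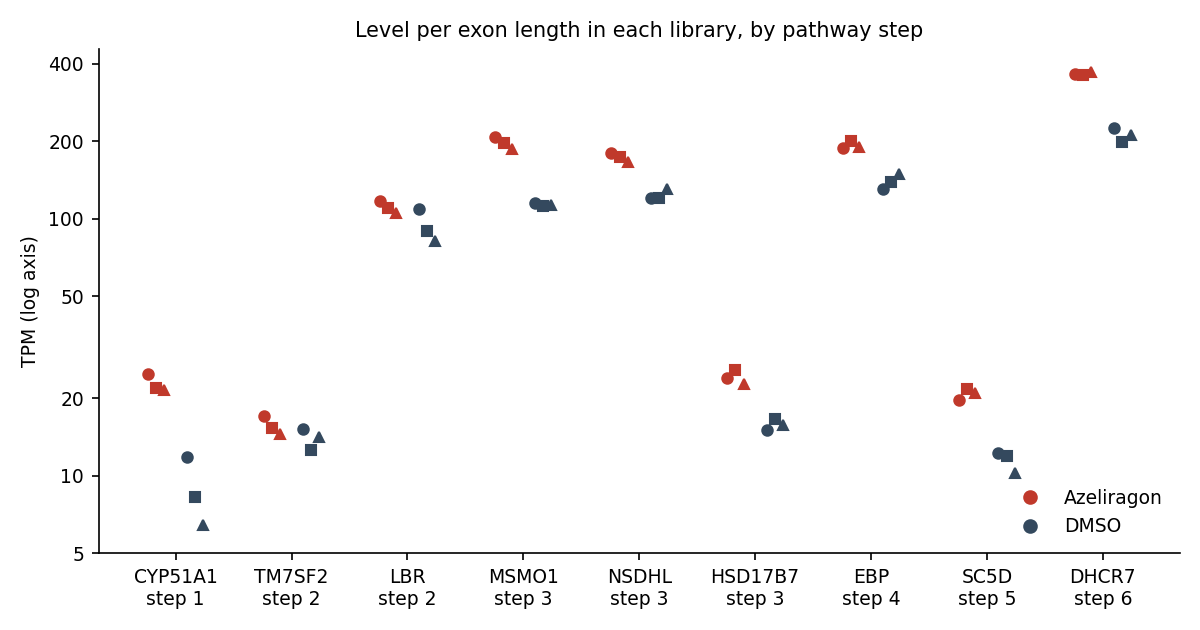
Level per exon length (TPM, logarithmic axis) of each enzyme in pathway order, with Azeliragon left of DMSO and one point per library (circle a, square b, triangle c). DHCR7 is highest at 360 to 372 TPM with Azeliragon and 199 to 226 TPM in DMSO, and CYP51A1, TM7SF2, HSD17B7 and SC5D lie lowest with all exon bases as length.

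DMSO a did not move the 9 genes in one direction. It was the highest DMSO library for CYP51A1 and LBR, the lowest for MSMO1, NSDHL, HSD17B7 and EBP, and between the others for TM7SF2, SC5D and DHCR7. Among Azeliragon libraries c was the lowest for CYP51A1, TM7SF2, LBR, MSMO1, NSDHL and HSD17B7. Without DMSO a 8 members passed, LBR in addition to the 7, while 23.7% of all genes tested passed. Without Azeliragon a or DMSO b 5 passed, and without Azeliragon b or c 6. Calls over the whole table also dropped in these fits, to 445, 473, 500 and 448 genes in that order, from 1009 with all 6 libraries. Leaving out DMSO c kept 7 members and 819 genes in all.

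Other genes of the pathway were read from lists chosen with earlier results of these data known. Of 10 genes read from the earlier arm, between ACAT2 and LSS, 9 rose, none fell and PMVK did not pass, with a median log2 fold change of 0.63. Over all genes tested 2.75% were called higher, and the median log2 fold change was -0.00397. The call of IDI1 was lost without Azeliragon a or b (edgeR adjusted p up to 0.0611). HMGCS1 and SQLE, the epoxidase before lanosterol is formed, had the largest, at 2.02-fold and 1.97-fold (edgeR adjusted p = 4.22e-06 and 7.50e-05). ACAT2, which joins acetyl units at the start of the pathway, rose 1.67-fold, and MVD, a decarboxylase of the mevalonate branch, 1.63-fold (edgeR adjusted p = 2.25e-05 and 0.000446). PMVK had a log2 fold change of -0.10 (edgeR adjusted p = 0.624), which lay between -0.22 and 0.01 under the other settings and passed without DMSO a (edgeR adjusted p = 0.0193). LSS, the cyclase that makes the lanosterol on which CYP51A1 acts, had 328 ± 6.89 CPM with Azeliragon and 237 ± 12.6 CPM in DMSO (SD, n = 3 each; 1.38-fold, edgeR adjusted p = 0.000796).

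No electron donor or partner of these enzymes passed the test with all 6 libraries. POR, the reductase that feeds electrons to CYP51A1 and DHCR7, had 90.1 ± 3.45 CPM with Azeliragon and 86.3 ± 5.25 CPM in DMSO (SD, n = 3 each; log2 fold change 0.06, edgeR adjusted p = 0.662). None of the 6 genes on that list (POR, CYB5A, CYB5B, CYB5R3, PGRMC1 and PGRMC2) passed edgeR's test, and their median log2 fold change was 0.08. Of all genes tested 6.27% passed in either direction. CYB5R3, the cytochrome b5 reductase, was the most abundant, with 295 ± 22.7 CPM with Azeliragon and 318 ± 20.6 CPM in DMSO (SD, n = 3 each; log2 fold change -0.11, edgeR adjusted p = 0.465). CYB5B, with a log2 fold change of 0.18 (edgeR adjusted p = 0.0962), passed without DMSO a (edgeR adjusted p = 0.0200). It shares 2421 exon bases (35.1%) with AC026464.2 of the same strand, so its count may cover only part of its transcript.

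Among 10 genes of sterol sensing and uptake 3 rose, 1 fell and 6 did not pass, with a median log2 fold change of 0.12. Of all genes tested 6.27% were called in either direction and 2.75% were called higher. SREBF2, which encodes SREBP2, rose 1.28-fold (451 ± 15.9 CPM with Azeliragon and 352 ± 27.8 CPM in DMSO, SD, n = 3 each; edgeR adjusted p = 0.00888), less than 7 of the 9 enzymes in point estimate, and its call was lost without Azeliragon b or c or DMSO b (edgeR adjusted p up to 0.0789). NPC1, which moves cholesterol out of lysosomes, rose 1.72-fold (121 ± 7.24 CPM with Azeliragon and 70.3 ± 6.61 CPM in DMSO, SD, n = 3 each; edgeR adjusted p = 0.000122). INSIG1, which holds the SREBP complex back, rose 1.31-fold, whereas SREBF1 had a log2 fold change of -0.58 (edgeR adjusted p = 0.00181 and 0.000131). The most abundant that did not pass were MBTPS1, a protease that cuts SREBP, and NPC2, a partner of NPC1, with log2 fold changes of -0.12 and 0.14 (edgeR adjusted p = 0.291 and 0.430). STARD4, with a log2 fold change of 0.28 (edgeR adjusted p = 0.109), passed under 4 of the 15 other settings, among them without DMSO a. Several genes of these lists share exon bases with a gene of the opposite strand, among them ACAT2 (2247, or 52.3% of its exon bases, with SOD2, SOD2-OT1 and TCP1), HMGCS1 (703), NPC1 (604 with RMC1) and SREBF1 (556 with RAI1), and without a known strand setting reads there cannot be assigned.

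The genes most like the 9 in pattern were sought by Pearson correlation, over the 6 libraries, with the mean of their standardised log2 CPM. Among the members MSMO1 followed that mean most closely (r = 0.995) and TM7SF2 least (r = 0.660). The mean includes each member itself, so the r values of members cannot be set beside those of other genes. Outside them, at a mean of at least 5 CPM, the 8 most alike were NEXN (r = 0.996), UBE2E1, FDFT1, PRPS1, DIS3L, PGM2, CNN3 and EZR (r = 0.990). FDFT1, the squalene synthase, was the only one of these 8 from the earlier arm. The 6 libraries form 2 groups, so these values mostly rank genes by how cleanly they separate the groups: UBE2E1 and CNN3 differed by only 1.06-fold and 1.09-fold and did not pass (edgeR adjusted p = 0.445 and 0.213).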

How the data were processed

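RNA was sequenced from 6 libraries of MDA-MB-231 cells. The authors deposited raw counts of reads per gene name. Per the submitters' processing notes, the tools were limma, featureCounts 1.5.0-p3 and STAR 2.6.1d, with the GRCh38 build. For the annotation, the strand setting and reads in shared exons or several places, the setting is not given in the sources used here. Of 58735 rows, 58722 have a name in GENCODE 29, used for positions and lengths, and 1566 repeat a name. The 2 rows whose names had become numbers were left out. Genes were filtered with filterByExpr and libraries were scaled by TMM. The groups were compared by edgeR 4.0.16 (glmQLFit, glmQLFTest, R 4.3.3) on all 16081 genes kept. SEs are the log2 fold change over the root of the F statistic. edgeR was tested on simulated data. Depth limits low genes: intervals cover counting and library spread only. Other settings included DESeq2 1.42.0 and limma-voom (limma 3.58.1), listed at the end.

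The members and lists were chosen with earlier results of these data known. The text names all 9 members, up to 4 called and 2 uncalled genes of each other list, and the 8 genes most alike in pattern, without clone names and pseudogenes. Further list genes are named to complete a count or a role, after their values were seen. The motifs were chosen with the promoters in view. Within each group every pair of libraries differed beyond sampling noise (chi-square per degree of freedom at least 4.62). Some genes of the other lists are not reported here and are left out of those lists' counts and medians.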

Additional observations from a re-analysis of the deposited data

How the results depend on the processing

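Across 15 other settings for each of the 9 enzymes none of the 135 fold changes reversed, 126 stayed on the same side of the threshold, 6 calls were lost (NSDHL and EBP, with a library left out) and LBR gained a call 3 times. The settings were limma-voom, DESeq2, scaling by library totals or by RLE, a stricter filter or none, a replicate block, a correction for gene GC content and length in each library (alone and with the block), and each library left out. Between 5 and 8 members passed. The number of all genes called was 1685 without a filter, where 1009 were called with it, and 445 to 3916 with a library left out (3916 without DMSO a). With a replicate block 7 members passed, as without it, and 908 genes in all; the block ended the calls of ERG28 (edgeR adjusted p = 0.0512) and LMNB1 (0.0535). The letters were not shown to pair libraries: deviations of same-lettered libraries correlated at 0.0266, 0.0224 and -0.0437, and not every library correlated best with its own letter. With a library left out the TM7SF2 to LBR difference lay between -0.14 and 0.01 (without DMSO c, where its sign changed); the cause was not tested. The level over unshared exon bases was added after seeing the data.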
